A study of Homo sapiens with 8 samples.

Results

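AP-1 is a dimeric transcription factor built from proteins of the JUN and FOS families, and 8 genes are described here: JUN, JUNB and JUND of the JUN family, FOS, FOSB, FOSL1 and FOSL2 of the FOS family, and ATF3, a related leucine-zipper gene. They were chosen by name among 27936 genes with a gene ID, and all 8 were found. The data were gene counts of stranded poly(A) RNA libraries from HEK293 cells, an established human line of embryonic kidney origin. Of 8 libraries, 4 were labelled TIP60 knock-out (KO), with the genotype label HEKg1/C9, and 4 were labelled control, with the genotype label HEKg1. In both arms the guide label was sgRNA1 for 2 libraries and sgRNA2 for the other 2, and expression of the guides was induced in every library by doxycycline at 1 µg/ml for 3 days. KAT5 encodes TIP60, an enzyme that acetylates histones and other proteins as part of a chromatin complex. The labels do not explain the genotype names, give the targets of the guides, or say whether the lines were clones or the replicates separate cultures, so p-values measure only the spread between these libraries.

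JUN proteins pair with one another or with FOS proteins through a leucine zipper, whereas FOS proteins need a JUN partner, and the dimers bind a short palindrome in DNA. Most of these genes are immediate-early genes: signals carried by mitogen-activated protein (MAP) kinases switch them on within minutes without new protein synthesis, and their mRNAs are short-lived. JUND is the exception, being present in resting cells of many kinds. ATF3 is induced by many forms of stress, binds DNA alone or with JUN partners, and often acts as a repressor.

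Because several members were higher together in KO libraries, as described below the sequences, the annotated promoters of the most abundant member (JUN), of the 2 with the highest fold changes (FOS and FOSB) and of ATF3 are shown. Each window runs from 250 bases before to 50 bases after a RefSeq transcript start, on GRCh38.p14, and is written 5′ to 3′ on the strand of the gene. Capitals mark matches, on either strand, to TGACGTCA (the cyclic AMP response element, CRE), its variant TGACATCA, the CRE core TGACG, the AP-1 site TGANTCA, or TATAAA. The JUN window lies at chr1:58783998-58784297 on the minus strand, FOS at chr14:75278578-75278877, FOSB at chr19:45467746-45468045 and the upstream of 2 ATF3 windows at chr1:212565157-212565456, all on the plus strand.
JUN: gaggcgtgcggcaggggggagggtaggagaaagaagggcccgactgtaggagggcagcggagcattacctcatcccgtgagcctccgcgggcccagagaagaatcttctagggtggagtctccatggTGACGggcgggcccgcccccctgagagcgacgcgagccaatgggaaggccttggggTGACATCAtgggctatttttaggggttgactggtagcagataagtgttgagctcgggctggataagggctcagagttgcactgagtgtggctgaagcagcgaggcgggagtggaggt
FOS: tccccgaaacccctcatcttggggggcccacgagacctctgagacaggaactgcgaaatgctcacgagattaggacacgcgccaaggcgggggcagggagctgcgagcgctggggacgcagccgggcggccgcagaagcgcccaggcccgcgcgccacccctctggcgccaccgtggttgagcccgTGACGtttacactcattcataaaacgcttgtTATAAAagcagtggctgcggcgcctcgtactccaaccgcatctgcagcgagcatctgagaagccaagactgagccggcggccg
FOSB: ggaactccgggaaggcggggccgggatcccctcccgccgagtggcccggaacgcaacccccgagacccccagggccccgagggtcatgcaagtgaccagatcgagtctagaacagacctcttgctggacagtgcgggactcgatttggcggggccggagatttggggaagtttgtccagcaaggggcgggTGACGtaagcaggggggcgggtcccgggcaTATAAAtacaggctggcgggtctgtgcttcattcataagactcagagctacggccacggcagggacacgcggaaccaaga
ATF3: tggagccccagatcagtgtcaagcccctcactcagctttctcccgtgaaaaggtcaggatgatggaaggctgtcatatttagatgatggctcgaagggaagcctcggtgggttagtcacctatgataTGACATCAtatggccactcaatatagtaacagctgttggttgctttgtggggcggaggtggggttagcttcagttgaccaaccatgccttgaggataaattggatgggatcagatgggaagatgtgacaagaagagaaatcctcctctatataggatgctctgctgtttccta

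None of these matches was present in all 4 windows, and the ATF3 window shown shared none with FOS or FOSB. JUN and ATF3 each contained TGACATCA, which began 67 bases upstream of the start in JUN and 123 bases upstream in ATF3, and which was present in 2.61% of 35116 promoter windows of the same length. JUN also held TGACG, 123 bases upstream. JUN dimers are known to bind the variant in the JUN promoter. FOS and FOSB each contained TGACG followed by TATAAA, the core beginning 64 bases upstream and the TATA sequence 33 bases upstream in FOS, and 60 and 30 bases upstream in FOSB. TGACG was present in 24.55% of all windows and TATAAA in 11.5%. Among the other members, JUNB had both TGACG and TATAAA, JUND had a full TGACGTCA (1.85% of all windows) 200 bases upstream, which itself holds the core on both strands, and FOSL2 had an AP-1 site, TGACTCA, at the start of transcription (TGANTCA is in 7.71% of windows). JUND had a further core 86 bases upstream, FOSL2 had the core 66 and 201 bases upstream, and the second ATF3 window had TATAAA 230 bases upstream. The core was thus present in 6 of the 7 members with a window. Neither ATF3 window held it, but these windows need not cover the ATF3 promoter used in these cells. They were 48% and 46.3% GC, against a median of 58.7% over all windows. No CArG box, the binding sequence of serum response factor, was matched in the 8 windows of 7 members, against 1.29% of all windows. At so low a background rate, 8 windows are too few for the lack of a match to be informative. Sequence further upstream than the windows was not searched, so whether these genes have such a site there is not known from this search. A match describes letters in the window and is not evidence of binding.

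KAT5 (gene ID 10524), the gene of the TIP60 KO label, had 18.6, 18.3, 20.2 and 18.0 CPM in the KO libraries. The control libraries had 48.1, 45.5, 44.5 and 49.0 CPM. The order is sgRNA1 replicates 1 and 2, then sgRNA2 replicates 1 and 2, which holds for all lists of values here. CPM are counts scaled to library size with TMM factors, per 1e+06 counts. The KO mRNA level was lower with no overlap between arms and was not absent. Libraries held 3723992 to 18841774 counts, the shallowest being control sgRNA1 replicate 2, and the next shallowest held 12478705. Of 8 genes fixed as features of HEK293, 6 averaged at least 1 CPM, while the kidney regulators PAX2 and LHX1 were below that. Summed levels of markers of leukocytes were 8.12 to 8.94 CPM in KO and 4.31 to 5.97 CPM in control libraries, of fibroblasts 19.2 to 24.0 and 14.7 to 25.1 CPM, of endothelium 3.04 to 4.26 and 0 to 0.414 CPM, of epithelial carcinoma 28.5 to 31.3 and 28.3 to 35.1 CPM, and of hepatocytes 0.292 to 0.668 and 0 to 0.0813 CPM. The pan-leukocyte gene PTPRC averaged 0.111 and 0.135 CPM, SERPINA1 was at 0 in every library, and the endothelial sum was mostly the receptor KDR. Whether cell types differ in number or in RNA per cell cannot be told apart in bulk RNA, and the part of any such cells in the results below was not tested.

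Transcripts of 7 of the 8 members were higher in KO than in control libraries, by 1.73-fold to 23.2-fold, and FOSL1 was close to silent in both arms. FOS and FOSB had the highest fold changes, ATF3 came next, JUN and JUNB were close to each other, and JUND and FOSL2 had the lowest. The 7 passed a filter on low counts and were tested, and each passes it on the control libraries alone as well as on the KO libraries alone. All 7 were called higher at an edgeR adjusted p under 0.05, a call made for 31.8% of 14455 tested genes. At least 2-fold rises were called for 6 of the 7 and for 8.38% of tested genes. The median log2 fold change was 1.80 over the 7 members and 0.01 over all tested genes. For each of the 7 the lowest KO library was above the highest control library, which gives an exact permutation p of 0.0286 (two-sided, 4 against 4, the smallest this design allows). The share of all tested genes with arms apart in this way was not counted. Since 63.0% of tested genes were called in either direction, such separation is not taken as particular to the members.

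**Figure D1:**
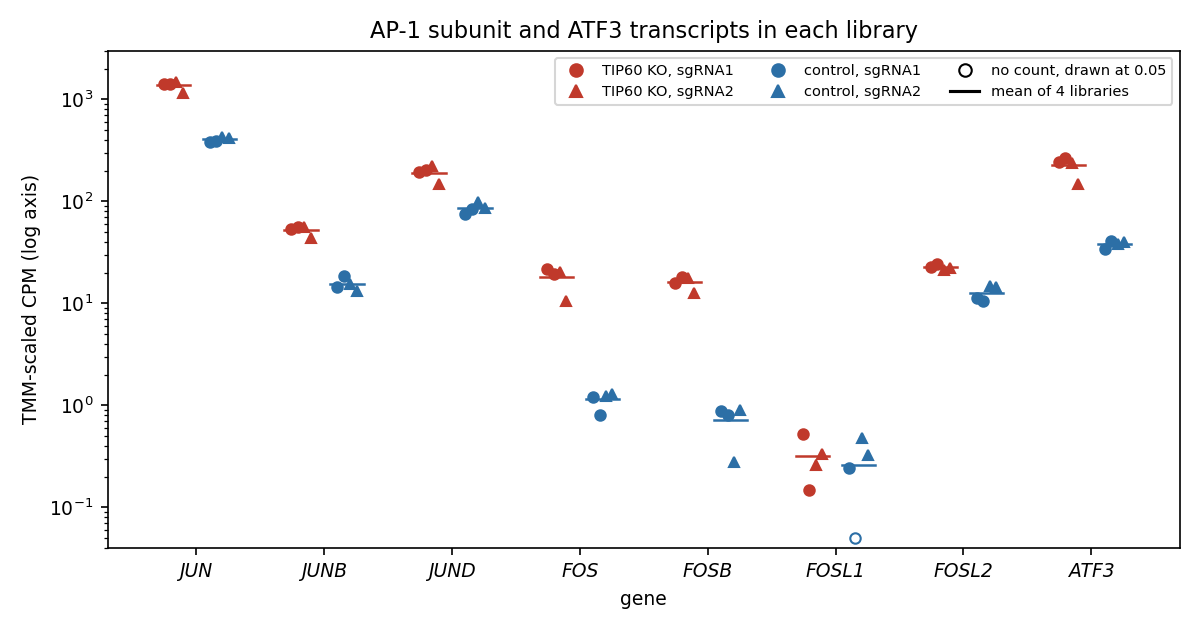
TMM-scaled CPM (log axis) of each member in the 4 KO libraries (red) and the 4 control libraries (blue), with circles for sgRNA1, triangles for sgRNA2 and a bar at the mean. The arms are apart for every gene except FOSL1, which stays under 0.53 CPM and has no count in control sgRNA1 replicate 2 (open circle, drawn at 0.05).

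JUN (gene ID 3725, chromosome 1, 58780791 to 58784047, GRCh38), the founding subunit and the strongest activator among the JUN proteins, was the most abundant member in every library. It had 1429.9, 1424, 1468 and 1156 CPM in KO libraries and 384, 393, 429 and 417 CPM in control libraries. The other KO values lie close together and sgRNA2 replicate 2 lies below them, still far above every control. The log2 fold change was 1.75 ± 0.067 (SE, edgeR adjusted p = 1.23e-14). Ranked by TPM, which divides counts by gene length, JUN stood at ranks 73 to 97 of all genes in KO libraries and 370 to 450 in control libraries.

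JUNB (chromosome 19, 12791486 to 12793315), which often restrains JUN, had 53.5, 56.6, 55.8 and 43.5 CPM in KO libraries and 14.5, 18.6, 15.6 and 13.2 CPM in control libraries. Its log2 fold change, 1.80 ± 0.088 (edgeR adjusted p = 6.76e-13), is within 1 SE of that of JUN, although its level per length is far lower. JUND (chromosome 19, 18279694 to 18281622) had 195, 205, 220.2 and 147 CPM in KO libraries and 75.5, 84.3, 99.4 and 85.6 CPM in control libraries. The lowest KO value, again of sgRNA2 replicate 2, stands above the highest control value by a narrower ratio than for JUN or JUNB. JUND changed by 1.15 ± 0.095 (log2 fold change ± SE, edgeR adjusted p = 1.89e-09), the smallest rise of the JUN family. JUN, JUNB and JUND each consist of a single exon, and none shares annotated exonic bases with another gene in GENCODE v29.

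FOS (chromosome 14, 75278828 to 75282230), the classic immediate-early gene, was scarce in control libraries. It had 21.8, 19.2, 20.4 and 10.6 CPM in KO libraries and 1.21, 0.808, 1.24 and 1.30 CPM in control libraries. The control values rest on 15, 3, 18 and 16 counts, against 373, 259, 390 and 160 counts in KO libraries. Its log2 fold change was 3.85 ± 0.24 (edgeR adjusted p = 1.86e-11), and the ratio of pooled CPM was 15.0 with a 95% interval of 11.4 to 20.3 that covers counting error only.

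FOSB (chromosome 19, 45467996 to 45475179), whose truncated splice form accumulates in chronically stimulated neurons, rose most. It had 15.9, 18.2, 17.7 and 12.6 CPM in KO libraries and 0.888, 0.808, 0.276 and 0.895 CPM in control libraries. One control library, sgRNA2 replicate 1, stands below the other controls with 4 counts. The log2 fold change was 4.53 ± 0.22 (edgeR adjusted p = 4.95e-13), which ranked 35 among 14455 genes from the highest, and that of FOS ranked 75. The pooled CPM ratio of FOSB was 23.8 (16.5 to 35.8), so the counting intervals of FOSB and FOS overlap. Counts are per gene, and splice forms could not be separated.

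FOSL2 (FRA2; chromosome 2, 28392858 to 28417317), a FOS protein without the strong activation domain of FOS, had 22.7, 24.6, 21.4 and 22.2 CPM in KO libraries and 11.2, 10.5, 14.8 and 14.5 CPM in control libraries. The KO libraries are tight, while the sgRNA1 controls lie below the sgRNA2 controls. Its log2 fold change was 0.79 ± 0.095 (edgeR adjusted p = 4.10e-07), which ranked 1600. FOSL1 (FRA1; chromosome 11, 65892049 to 65900545), the FOS gene that epithelial tumours often express, had 9, 2, 5 and 5 counts in KO libraries and 3, 0, 7 and 4 counts in control libraries. These are 0.525, 0.148, 0.261 and 0.331 CPM against 0.242, 0, 0.483 and 0.325 CPM, and the arms overlap. FOSL1 did not pass the filter on low counts. Its exact permutation p was 0.6 (n = 4 per arm), and the pooled CPM ratio of 0.992 had a counting interval of 0.481 to 2.11, so that a change of up to about that size was not detectable at this depth. The annotated spans of FOSL1 and KAT5 are 172 kb apart.

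ATF3 (chromosome 1, 212565407 to 212620777) had 244, 268, 239.9 and 147 CPM in KO libraries and 34.2, 40.9, 38.6 and 39.9 CPM in control libraries. The control libraries are close together, and in the KO arm sgRNA2 replicate 2 is again the lowest. The log2 fold change was 2.53 ± 0.12 (edgeR adjusted p = 5.46e-13), which ranked 252. ATF3 has 2 promoter windows in the RefSeq table, and gene counts do not show which was used, or whether a start outside both was. None of the FOS family genes or ATF3 shares annotated exonic bases with another gene.

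Per unit of gene length, the 8 members together made up 1820.2 ± 254 TPM in KO libraries and 524 ± 25.1 TPM in control libraries (SD, n = 4 each). In TPM the order in KO libraries was JUN (1196 ± 138), JUND (283 ± 49.1), ATF3 (213 ± 51.8), JUNB (83.6 ± 10.4), FOS (24.2 ± 7.01), FOSB (12.4 ± 2.04), FOSL2 (7.70 ± 0.456) and FOSL1 (0.524 ± 0.266). The same order held within each of the 4 KO libraries, although the ranges of JUND and ATF3 over libraries overlap. In control libraries the order was JUN (338 ± 11.6), JUND (121 ± 12.5), ATF3 (34.6 ± 2.49), JUNB (23.6 ± 3.76), FOSL2 (4.11 ± 0.637), FOS (1.46 ± 0.275), FOSB (0.527 ± 0.220) and FOSL1 (0.412 ± 0.313). FOSB and FOSL1 overlapped there, with FOSL1 the higher in sgRNA2 replicate 1.

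The make-up of the FOS family differed between the arms more than that of the JUN family. FOSL2 made up 17.8% ± 3.99 of length-scaled FOS family counts in KO libraries, with a range of 14.9 to 23.6%, and 63.3% ± 3.96 in control libraries, with a range of 58.4 to 67.6%. FOS made up 53.2% ± 6.14 in KO and 22.4% ± 1.86 in control libraries, and FOSB 27.8% ± 2.49 and 8.44% ± 3.99. Per unit of length, FOSL2 was therefore the leading FOS family transcript in each control library and FOS in each KO library. In CPM, without division by length, FOSL2 was above FOS in each KO library as well, so the lead of FOS there rests on the length scaling. Within the JUN family, JUN made up 76.6% ± 1.04 in KO and 70.02% ± 1.46 in control libraries, and JUND 18.0% ± 1.04 and 25.1% ± 1.33. JUNB made up 5.35% ± 0.126 and 4.89% ± 0.790, and its ranges overlapped. JUN family transcripts exceeded FOS family transcripts in both arms, at 1563 ± 196 against 44.8 ± 8.99 TPM in KO libraries and 483 ± 23.7 against 6.51 ± 1.05 TPM in control libraries.

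**Figure D2:**
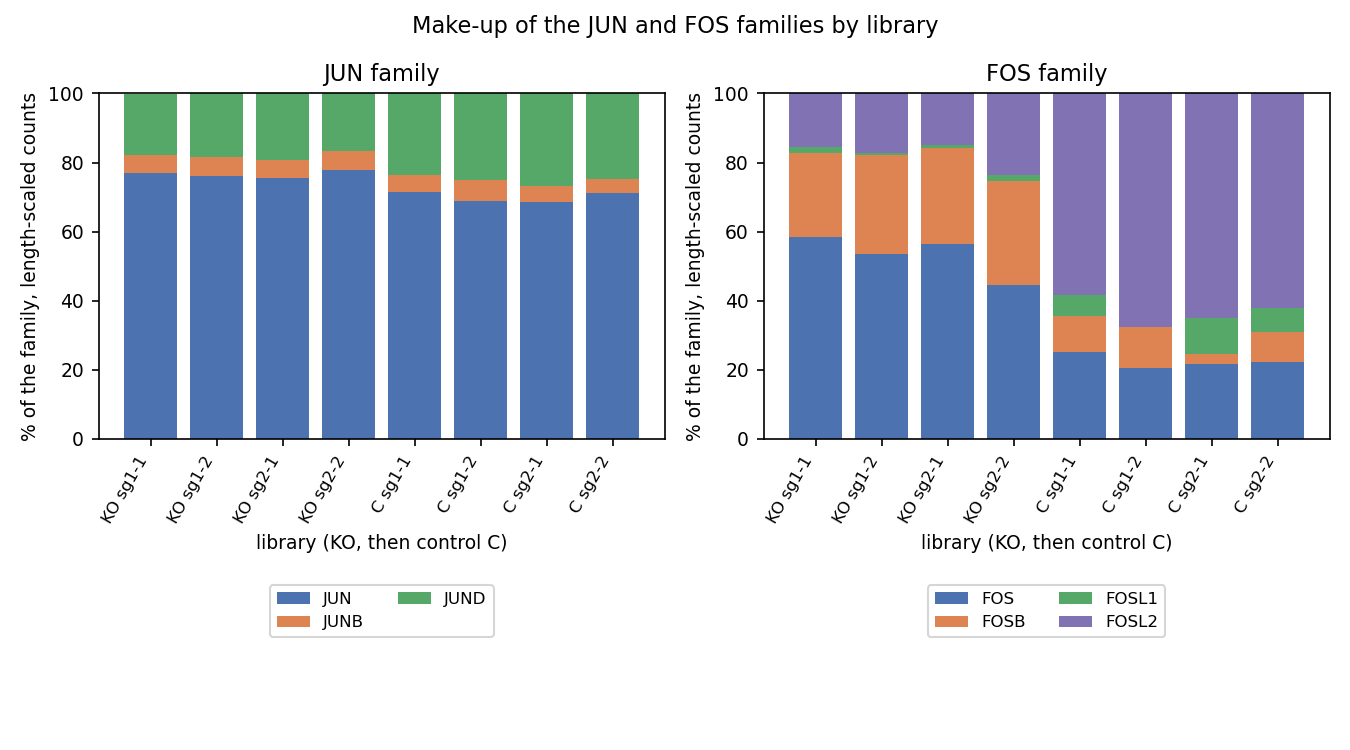
Share of each gene in the length-scaled counts (counts divided by gene length) of the JUN family, left, and of the FOS family, right, in each KO library and each control library (sg1-2 is sgRNA1 replicate 2). FOSL2 fills 14.9 to 23.6% of the FOS family bars in KO and 58.4 to 67.6% in control libraries, while JUN leads every bar of its family.

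The rise was present with each guide number. Within sgRNA1, 7 of the 7 tested members were called higher, as were 24.3% of all tested genes, and within sgRNA2, 7 of 7 and 25.7%. The log2 fold changes ± SE with sgRNA1 and with sgRNA2 were 1.88 ± 0.091 and 1.63 ± 0.089 for JUN, 1.82 ± 0.14 and 1.79 ± 0.12 for JUNB, and 1.34 ± 0.14 and 0.99 ± 0.12 for JUND. They were 4.19 ± 0.38 and 3.63 ± 0.32 for FOS, and 4.27 ± 0.32 and 4.75 ± 0.30 for FOSB. Thus 6 of the 7 had the higher estimate with sgRNA1, and FOSB with sgRNA2, but 0 of the 7 differences between guides passed the test. Without control sgRNA2 replicate 1, the library with 4 FOSB counts, FOSB had 4.08 within sgRNA2, and without control sgRNA2 replicate 2 it had 5.73. Leaving out KO sgRNA2 replicate 1 gave JUND 0.66 and FOS 3.04 within sgRNA2, each still called.

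The 2 members that came nearest to a guide difference were FOSL2 and ATF3. FOSL2 rose by 1.10 ± 0.12 with sgRNA1 and by 0.58 ± 0.10 with sgRNA2, a difference of 0.52 ± 0.16 (unadjusted p = 0.00489, edgeR adjusted p = 1.00). Its group means were 23.6 and 21.8 CPM in KO sgRNA1 and KO sgRNA2 and 10.9 and 14.6 CPM in control sgRNA1 and control sgRNA2, so the guides were further apart in the controls. Thinned to the smallest library, the FOSL2 change within sgRNA2 was 0.40 and no longer called (edgeR adjusted p = 0.110). ATF3 rose by 2.82 ± 0.17 and 2.31 ± 0.15, a difference of 0.51 ± 0.24 (unadjusted p = 0.0449, edgeR adjusted p = 1.00). Without KO sgRNA2 replicate 1, which leaves replicate 2 as the lone KO library of that guide, the ATF3 difference was 0.91 (edgeR adjusted p = 0.00502). The lone library is then assumed to vary like the other groups. Over all genes, 0 of 14455 were called for a guide difference by edgeR and 638 had an unadjusted p under 0.05. Between control sgRNA1 and control sgRNA2, 0 of the 7 members and 0.0277% of all tested genes were called, and FOSL2 differed by -0.41 ± 0.13 (edgeR adjusted p = 0.476).

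**Figure D3:**
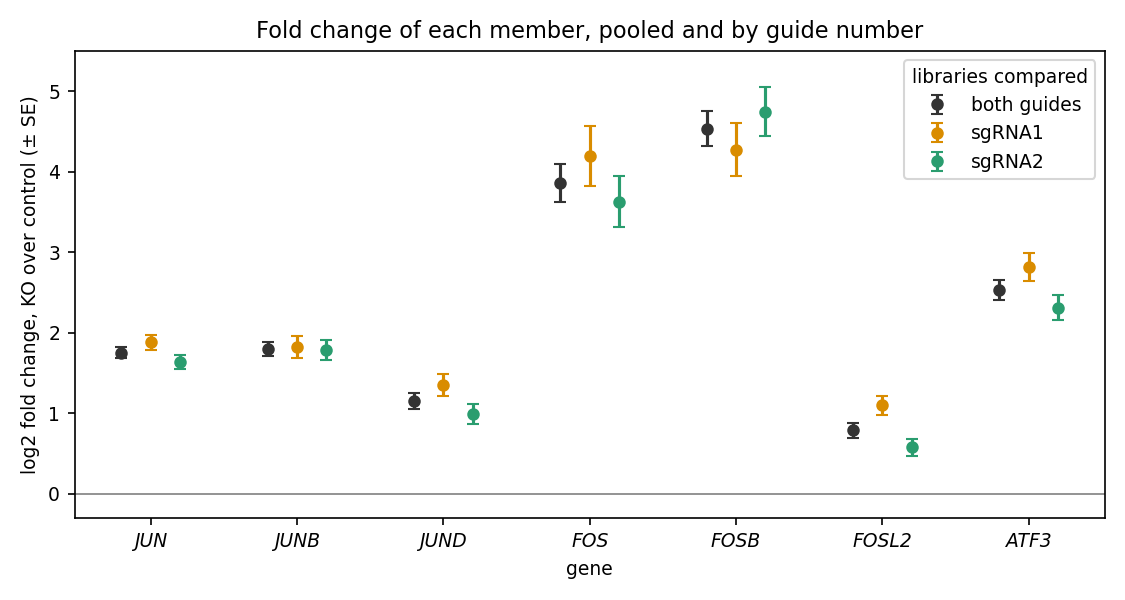
Log2 fold change of KO over control (± SE) for the 7 tested members, from all libraries (black), sgRNA1 libraries (orange) and sgRNA2 libraries (green). Every estimate lies above 0, from 0.58 for FOSL2 with sgRNA2 to 4.75 for FOSB with sgRNA2, and JUNB has nearly the same value with either guide.

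Within the KO arm, sgRNA2 replicate 2 had the lowest level of 6 members. Relative to the mean of the other 3 KO libraries it held 51.7% for FOS, 58.8% for ATF3, 71.3% for JUND, 72.9% for FOSB, 78.6% for JUNB and 80.3% for JUN. FOSL2, at 97.1%, and KAT5, at 94.6%, were close to the other KO libraries. Over all 14455 tested genes the same ratio had a median of 99.7%, and the library was the lowest KO library for 29.2% of them. Over the 1211 genes called at least 2-fold higher in KO the median was 92.1%, and it was the lowest for 42.9%. This library was singled out after its values were seen, and what sets it apart was not tested.

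**Figure D4:**
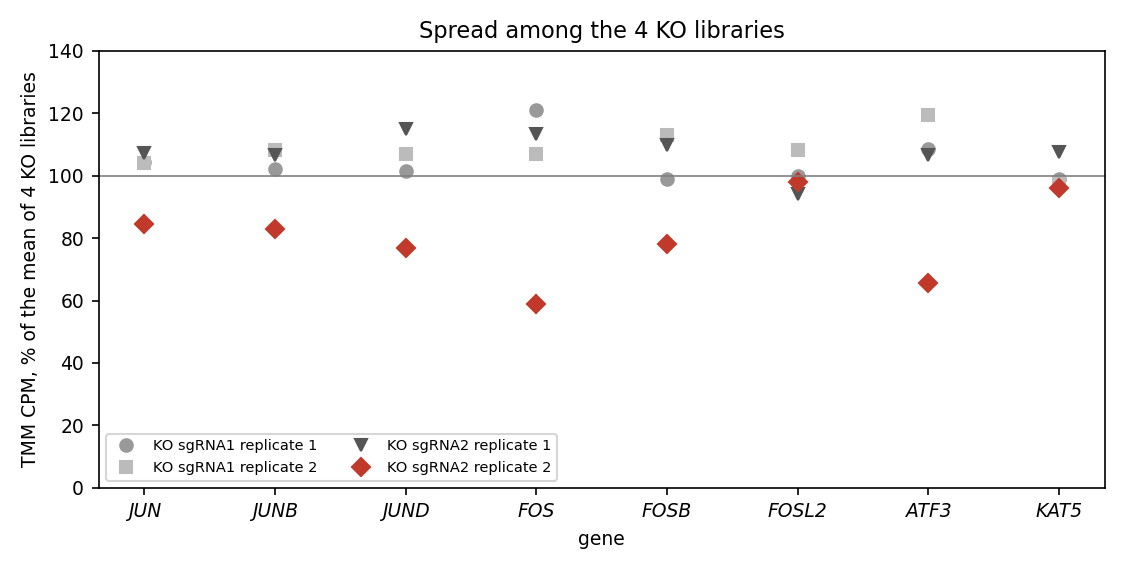
TMM CPM of each KO library as a percentage of the mean of the 4 KO libraries, for the 7 tested members and KAT5. KO sgRNA2 replicate 2 (red diamonds) lies under the other 3 (grey) for JUN, JUNB, JUND, FOS, FOSB and ATF3, and among them for FOSL2.

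Without that library all 7 members were still called higher, as were 4497 of 14735 tested genes. Their log2 fold changes were 1.84 for JUN, 1.89 for JUNB, 1.30 for JUND, 4.07 for FOS, 4.65 for FOSB, 0.81 for FOSL2 and 2.72 for ATF3. Between KO sgRNA1 and KO sgRNA2, ATF3 differed by 0.40 ± 0.13 and FOS by 0.38 ± 0.18, with an edgeR adjusted p of 0.993 for each. Without KO sgRNA2 replicate 1 these were 0.79 (edgeR adjusted p = 8.48e-05) for ATF3 and 0.95 (edgeR adjusted p = 0.00770) for FOS, so that comparison depends on which of the sgRNA2 libraries is kept.

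Of the 16 tested genes that flank the 8 members, 4 were higher, 8 lower and 4 not called, with a median log2 fold change of -0.13. Over all tested genes 31.8% were higher and 31.2% lower. The share of flanking genes called higher is thus near the background, and the share called lower is above it, in a set of only 16 genes. One flanking gene was called at least 2-fold higher. IQCN, 5.24 kb from JUND, had 3.66 ± 1.21 CPM in KO and 0.380 ± 0.158 CPM in control libraries (SD, n = 4 each). Its log2 fold change was 3.29 ± 0.34 (edgeR adjusted p = 4.79e-08). At this control level the KO libraries alone can carry a gene past the filter on low counts. RTN2, a reticulon gene 10.1 kb from FOSB, rose by 0.76 ± 0.15. PRDX2, the peroxiredoxin gene 3.51 kb from JUNB, had -0.08 ± 0.044 (edgeR adjusted p = 0.114), and HOOK2, whose annotated span overlaps that of JUNB without sharing its exons, had -0.06 ± 0.11 (edgeR adjusted p = 0.683). BATF3, an AP-1 family gene 65.6 kb from ATF3, fell by 0.78 ± 0.17. CCDC85B, 0.414 kb from FOSL1, fell by 0.43 ± 0.080. These genes were picked by position, and those named, for their distance or change, after their values were seen.

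Partners of AP-1 in the wider leucine-zipper group moved both ways. Of 22 tested, 13 rose and 5 fell with a median log2 fold change of 0.19, against 31.8% higher, 31.2% lower and a median of 0.01 over all tested genes. MAF (0.94 ± 0.061), CREB5 (0.61 ± 0.056), whose protein pairs with JUN, and CEBPG (0.57 ± 0.057) rose. MAFK (-0.57 ± 0.059), a small MAF without an activation domain, fell, as did BATF3. JDP2, a JUN-binding repressor that lies next to FOS, had 0.39 ± 0.24 (edgeR adjusted p = 0.161).

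Of 27 kinases upstream of AP-1, 10 rose and 5 fell, with a median of 0.04. The 37.0% called higher is near the 31.8% of all tested genes, and the 18.5% called lower stands beside 31.2%. RPS6KA2, a ribosomal S6 kinase activated by the MAP kinase ERK, rose by 1.58 ± 0.094, and MAP2K4, an activator of the JUN kinases, by 0.69 ± 0.051. MAPK3, which encodes the kinase ERK1, fell by 0.90 ± 0.055 and RPS6KA4, the kinase MSK2, by 0.80 ± 0.068. Of 16 factors known to act on AP-1 promoters, 4 rose and 5 fell, with a median of -0.04, shares near those of all tested genes (31.8% higher and 31.2% lower). STAT3 (0.58 ± 0.048) and MRTFA, the actin-regulated partner of serum response factor (0.53 ± 0.051), rose, and ELK3 (-0.63 ± 0.061) and SP1 (-0.44 ± 0.045) fell. These are mRNA levels and do not measure kinase activity.

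Of 18 genes for the turnover of AP-1 mRNAs and proteins, 6 rose and 8 fell, with a median of -0.04. The 33.3% called higher is near the 31.8% of all tested genes, and 44.4% were called lower, against 31.2%. ZFP36 (tristetraprolin), which binds AU-rich mRNAs and speeds their decay, had 3.56 ± 0.853 CPM in KO and 0.636 ± 0.265 CPM in control libraries (SD, n = 4 each; 2.28 ± 0.28, edgeR adjusted p = 5.05e-07). At the control level of ZFP36, the KO libraries alone can carry a gene past the filter on low counts. TRIB1, an adaptor for protein degradation, rose by 0.67 ± 0.048. HNRNPD (AUF1), another AU-rich element binder, fell by 0.55 ± 0.042, and CNOT6, a deadenylase, by 0.29 ± 0.042.

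Of 33 genes taught as AP-1 targets, 25 were tested, and 13 rose, 6 fell and 6 were not called, with a median of 0.26. These are 52.0% higher and 24.0% lower, against 31.8% and 31.2% of all tested genes. At least 2-fold rises were called for 10 of the 25 (8.38% of all tested genes), and 7 of these 10 averaged under 1 CPM in control libraries, levels at which the KO libraries alone can carry a gene past the filter on low counts. HBEGF, an epidermal growth factor ligand, had 18.5 ± 2.44 CPM in KO and 4.04 ± 0.752 CPM in control libraries (SD, n = 4 each; 2.10 ± 0.13, edgeR adjusted p = 1.40e-11), and FSCN1, an actin bundler, rose by 0.75 ± 0.045. The cyclin CCND1, with 91.0 ± 3.46 CPM in KO and 165.6 ± 8.90 CPM in control libraries, fell by 0.87 ± 0.047 (edgeR adjusted p = 3.14e-12), and the connexin GJA1 fell by 0.79 ± 0.046.

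Further large rises among these targets were picked after their values were seen. The metalloproteinase gene MMP10 had 92 counts in KO and 2 in control libraries, a pooled CPM ratio of 30.4 (95% counting interval 8.19 to 255). Heme oxygenase HMOX1 (1.46 ± 0.088), the laminin chain LAMB3 (2.40 ± 0.21) and MMP13 (2.86 ± 0.38) rose as well. By contrast TIMP1 (0.04 ± 0.056, edgeR adjusted p = 0.528), VEGFA (-0.03 ± 0.080, edgeR adjusted p = 0.729) and PLAUR (-0.16 ± 0.14, edgeR adjusted p = 0.344) did not pass the test.

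Of 17 tested stress genes that accompany ATF3, 11 rose and 1 fell, with a median of 0.79. These are 64.7% higher and 5.88% lower, against 31.8% and 31.2% of all tested genes. GADD45B, a stress sensor upstream of p38 and JUN kinase signalling, had 89.1 ± 7.33 CPM in KO and 6.32 ± 1.74 CPM in control libraries (SD, n = 4 each; 3.72 ± 0.098, edgeR adjusted p = 4.78e-17). GADD45A (1.38 ± 0.11), SESN2 (1.10 ± 0.060), a sestrin that restrains growth signalling, and the chaperone HSPA5 (0.64 ± 0.051) rose, and ATF5 (-0.30 ± 0.068) fell. ATF4, which drives ATF3 in amino-acid and endoplasmic reticulum stress and stands in the partner list, had 0.13 ± 0.044 (edgeR adjusted p = 0.0145), with 434 ± 16.0 CPM in KO and 396 ± 12.6 CPM in control libraries, whose ranges overlap at 414 CPM. TRIB3, an ATF4 target, had -0.18 ± 0.11 (edgeR adjusted p = 0.168) and was among 5 genes of the list not called. Others in the list rose, such as CHAC1 (1.36 ± 0.19), CTH (0.93 ± 0.10) and ASNS (0.62 ± 0.057), picked after their values were seen. TRIB3 is a single gene, and ATF4 activity was not tested.

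**Figure D5:**
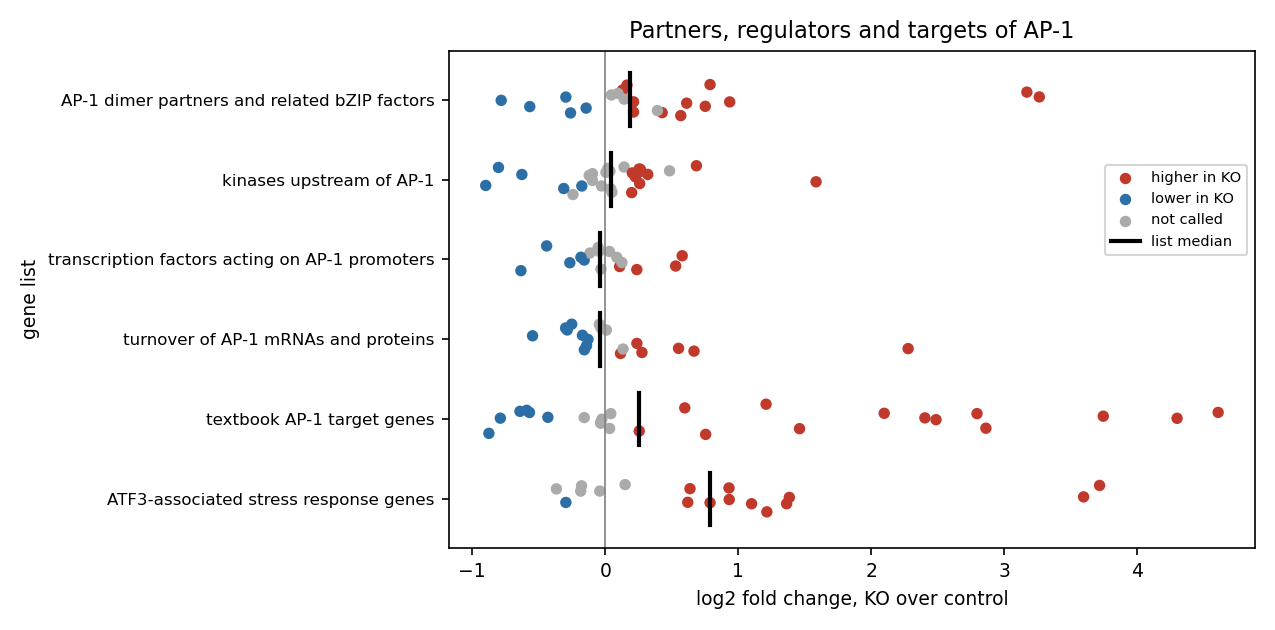
Log2 fold change of KO over control for each tested gene of 6 lists around AP-1 (points, with vertical jitter), red where higher in KO, blue where lower and grey where not called, with a bar at the list median. The kinase, promoter factor and turnover medians lie within 0.05 of 0, the target list reaches 4.61 (MMP10), and the ATF3-associated list has the highest median, 0.79.

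The genes whose values ran closest to 4 of the members were found by Euclidean distance over 8 libraries. The values compared were log2 CPM set relative to the control mean. The search covered 13383 other tested genes averaging at least 1 CPM over all 8 libraries. KO libraries alone can carry a gene past that cut. Among the 3 nearest to JUN were TUFT1 (distance 0.192) and AKAP3, an anchoring protein (0.291). TUFT1 had 64.8 ± 5.03 CPM in KO and 18.6 ± 1.07 CPM in control libraries (SD, n = 4 each). FOS was followed by GADD45B (0.691), the histone gene H4C8 (0.752) and ARC, an immediate-early gene of neurons (0.760), which had 201 ± 35.7 CPM in KO and 12.6 ± 0.695 CPM in control libraries. FOSB was followed by CCDC13-AS2 (0.763), PLIN4 (1.34), a lipid droplet protein, and the neuropeptide precursor VGF (1.35). ATF3 was followed by H3C10 (0.597), ZBBX (0.662) and KRTAP19-1 (0.687). In control libraries CCDC13-AS2, PLIN4, H4C8 and ZBBX averaged only 0.284, 0.539, 0.448 and 0.501 CPM, and the others named averaged at least 1 CPM. The distance is a description with no test. Reads of the near-identical histone genes H4C8 and H3C10 may be shared with other copies, and those of the antisense gene CCDC13-AS2 with its partner, since the counting rules are not known.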

How the data were processed

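RNA-seq counts of 8 HEK293 libraries were used, 4 KO and 4 control, each arm with 2 libraries per guide number. Each library has its own deposited file of unnormalized gene counts, beside which the authors list a gene length. The submitters' processing notes name featureCounts and hg38. Aligner, annotation, strand setting and the handling of shared reads: not given in the sources used here. Of 28395 entries, 459 without a gene ID were left out (0.0284 to 0.0425% of counts). Symbols and positions came from RefSeq (GRCh38.p14), which matched 27744 of 27936 gene IDs, and exons from GENCODE v29.

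Genes were filtered by filterByExpr (minimum count 10, minimum total 15). KO and control were compared with edgeR 4.0.16 (R 4.3.3; quasi-likelihood F test, TMM, a term for the guide number, 5 residual degrees of freedom; biological coefficient of variation 0.0473). Contrasts within and between guides used the 4 group means (4 residual degrees of freedom). The Benjamini-Hochberg adjustment covered all 14455 genes tested. SE is the log2 fold change divided by the square root of F. TPM was computed from the deposited counts and gene lengths. Exact permutation tests used log2 CPM with a prior count of 0.5. Intervals are exact 95% intervals and cover counting error only, since reads carry no molecular identifiers. The fit was first tested on simulated data. Replicates differed by more than sampling noise in each group, with a chi-square per degree of freedom of 1.60 to 7.96.

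The members and the 6 gene lists were chosen with earlier results of these data known. The genes named are all members, KAT5, up to 4 called genes of each list with the smallest p and up to 2 of the rarer direction, and the 3 nearest patterns of JUN, FOS, FOSB and ATF3; others are said to be picked later, which also holds for ATF4, JDP2 and TRIB3. A few genes that this rule names are not reported here. Alternatives were other scalings, DESeq2 1.42.0, limma-voom (limma 3.58.1), other filters, thinning, a replicate block, no guide term and leaving out each library.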

Additional observations from a re-analysis of the deposited data

Results flagged for a closer look

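In 18 sets of 4 libraries (8 members and KAT5 in each arm), 2 had a library whose gap to the nearest other exceeded Dixon's 95% critical value for the share of the range, and chance gives about 1 in 20. JUN had 1156 CPM in KO sgRNA2 replicate 2, below the other 3 KO libraries. FOSB had 0.276 CPM in control sgRNA2 replicate 1, from 4 counts.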

How the results depend on the processing

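Under all 17 alternatives to the comparison of KO with control, 7 members were called higher and 0 lower. Among all tested genes, from 3300 of 12605 (after thinning) to 5013 of 14455 (library totals alone) were called higher. The log2 fold changes of the members ranged over 1.70 to 1.84 for JUN, 1.70 to 1.89 for JUNB, 1.04 to 1.30 for JUND, 3.58 to 4.09 for FOS, 4.19 to 4.75 for FOSB, 0.70 to 0.86 for FOSL2 and 2.38 to 2.72 for ATF3. With a replicate block, 8981 genes were called in place of 9110, 7 members among them. Same-numbered KO and control libraries did not deviate together (correlation of deviations 0.018 for sgRNA1 and 0.033 for sgRNA2), so the numbers were not taken as pairs. Within sgRNA2, 4623 genes were called after thinning, in place of 7395. For the guide difference, 11 genes were called without a filter, 1 member (ATF3) among them, and 0 to 36 with a library left out, with 0 to 1 member. Between the control lines 4 genes were called, 86 without a filter, 2 with the stricter filter, 2 after thinning, and 2 to 116 with a library left out. Between the KO lines 0 genes were called, 11 without a filter with 1 member (ATF3), and 0 to 13 with a library left out, with 0 to 2 members. Counts without division by gene length put the JUN family at 90.5% of the 8 members' counts in control libraries (92.2% length-scaled), and the FOS family at 3.01% in KO and 2.64% in control libraries (2.44% and 1.24% length-scaled); FOSL2 then exceeds FOS in each KO library too. The cause of the other shifts was not tested. Depth limits FOSL1, and the control levels of FOS and FOSB.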
